A study of Mus musculus with 20 samples.

Results

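The genes described are 10 components of insulin and mTOR signalling, measured as transcripts in mouse liver: Insr, Irs1, Irs2, Grb10, Pik3r1, Pik3ca, Akt2, Foxo1, Mtor and Rptor. They were picked by gene symbol, and their Ensembl identifiers, matched through the GENCODE M21 annotation, gave 10 of the 21780 genes of the count table. All 10 had enough counts to be tested, among 15522 tested genes. RNA was sequenced from whole liver of 20 male C57Bl/6J mice, 5 in each group, and every mouse ate a high-fat diet (HFD, 42% of calories from fat) for 12 weeks. After 2 weeks of the diet, at 10 weeks of age, HFD control mice received corn oil by a single oral gavage. The HFD + Aroclor 1260 mice received 20 mg/kg of this commercial mixture of mostly non-dioxin-like polychlorinated biphenyls (PCBs), the HFD + PCB 126 mice 20 µg/kg of this dioxin-like congener, and the HFD + Aroclor 1260 + PCB 126 mice both (the combined exposure). The methods of the study place the harvest 10 weeks after gavage and the labels give 12 weeks, and food was withdrawn for about 6 h beforehand. All groups ate the high-fat diet, so no group shows the liver of lean mice, and exposure was a single dose followed by weeks without dosing.

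Insulin binds its receptor on hepatocytes, which phosphorylates the insulin receptor substrates, and these recruit phosphoinositide 3-kinase (PI3K). The lipid made by PI3K activates Akt, which keeps the forkhead factor Foxo1 out of the nucleus and so lowers glucose production, and which also releases the growth kinase complex mTORC1 from its brakes. In a fed liver the pathway stores glucose and makes fat, in fasting it falls silent, and in animals on fatty diets its glucose arm often responds poorly. Much of this control acts on proteins, and the libraries measured transcripts alone.

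Total counts per library were 21836506 to 36854887, and the lowest count of any of the 10 genes in any library was 66 (Grb10). Hepatocyte markers (Alb, Apoa1, Ttr, Serpina1a, Cps1, Cyp2e1) summed to 84492 to 119535 CPM (counts scaled to a common library size) in the libraries, while pancreatic acinar markers summed to at most 0.387 CPM. Cyp1a2, which dioxin-like compounds induce through the aryl hydrocarbon receptor (AhR), was at 249 to 517 CPM in HFD control, 279 to 492 with Aroclor 1260, 1120 to 2601 with PCB 126 and 537 to 992 with the combined exposure. Cyp1a1, another AhR target, differed from HFD control with PCB 126 (adjusted p = 0.0095, edgeR) but not with the combined exposure (adjusted p = 0.50). The AhR targets Cyp1b1, Tiparp and Ahrr did not differ with PCB 126 (adjusted p = 0.53, 0.74 and 0.86, edgeR). With Aroclor 1260 neither Cyp1a2 nor Cyp1a1 differed by this test, nor did the exposure marker Cyp2b10 (adjusted p = 0.22), so these markers do not check that label. One library stood apart: HFD control replicate 4 held 17.5 CPM of the muscle markers Acta1 and Ckm and 19.6 CPM of the adipocyte markers Adipoq, Lep and Plin1, against at most 0.344 and 5.99 CPM in any other library. The libraries also differed in how counts depended on base composition. The slope of a library's log2 CPM (as deviation from the gene's mean over libraries) per 10 percentage points of transcript GC content was 0.0040 to 0.50 in HFD control, -0.11 to 0.15 with Aroclor 1260, -0.10 to 0.405 with PCB 126 and -0.67 to -0.13 with the combined exposure. No combined library overlapped a control library in this slope. Calls for the 10 genes and the pathway genes with the combined exposure are thus given below as normalized and after GC correction (a smooth of each library's deviations over GC content, entered as an offset). Calls for cell type markers are given as normalized only. The order of the libraries follows the groups and the sequencing run of a library is not given in the sources used here, so run order and exposure cannot be told apart, and the part of base composition in any change was not tested.

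Levels were compared between genes per kilobase of exon, counting every annotated exon of a gene. This length can exceed that of the transcripts present in liver, so the order is approximate. The order was Insr (11.8 CPM per kb), Pik3r1 (8.57), Akt2 (8.23), Irs2 (7.90), Foxo1 (7.40), Mtor (5.39), Pik3ca (4.58), Irs1 (2.45), Rptor (2.21) and Grb10 (0.487), each as mean of 20 libraries. Insr, the receptor, was above Pik3r1 in 20 of 20 libraries, and Pik3ca was above Irs1 and Rptor above Grb10 in 20 of 20. Pik3r1, Akt2, Irs2 and Foxo1 changed places between libraries. Over all groups Pik3r1 exceeded Akt2 in 11 libraries, Akt2 exceeded Irs2 in 10 and Irs2 exceeded Foxo1 in 12 of 20. These neighbours thus kept no fixed order. The order of Pik3r1 and Akt2 moved with the group. Their means were 7.64 and 8.76 CPM per kb in HFD control and 10.1 and 6.96 with the combined exposure. They were 8.62 and 8.40 with Aroclor 1260 and 7.92 and 8.80 with PCB 126. Foxo1 was above Mtor in 16, Mtor above Pik3ca in 15 and Irs1 above Rptor in 13 libraries. Among all tested genes the per-kb level of Insr lay at percentile 83.6, the other genes down to Rptor lay at percentiles 54.8 to 79.0, and Grb10 lay at percentile 33.0.

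**Figure D1:**
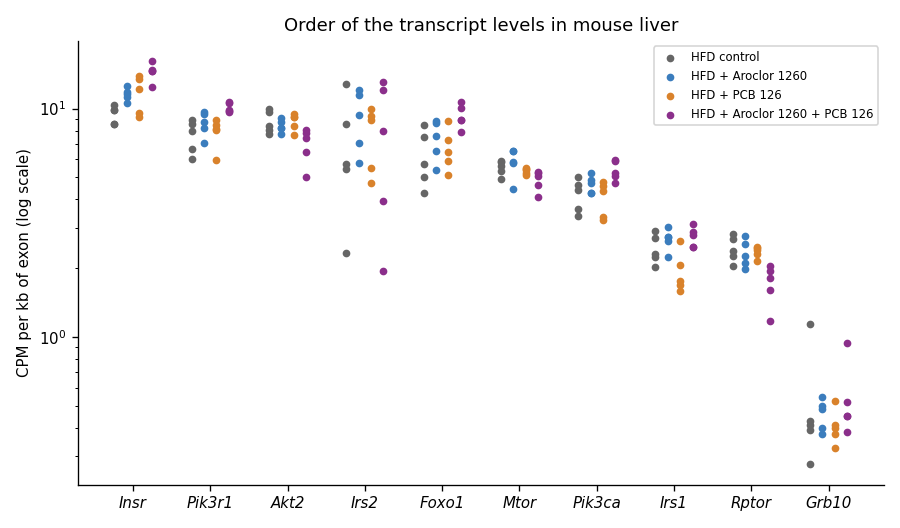
CPM per kilobase of exon (log axis) of the 10 genes in each of the 20 mice, coloured by group and ordered by their mean. Insr (mean 11.8) is highest and Grb10 (mean 0.487) lowest, and the points of Irs2 spread more widely than those of its neighbours.

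Promoter windows were read for the genes with an entry in the RefSeq table (build GRCm38.p6), 250 bases before to 50 bases after each annotated start; 9 of the 10 genes had at least 1 window (14 windows in all), and Insr had none. The 5-base core of the AhR response element, GCGTG, was searched on both strands because PCB 126 acts through AhR, and it was present in 7 of the 14 windows (of Irs1, Irs2, Grb10, Pik3r1, Akt2, Foxo1 and Rptor) and in 32.4% of 32851 mouse windows of this length. The E-box CACGTG was present in 2 of 14 windows (Irs1 and Irs2) and in 7.15% of all. None of the 14 windows held the letters searched for a forkhead site (GTAAACA, 3.65% of all windows), an amino acid response element (TTGCATCA, 0.895%) or a sterol response element (searched as 1 string of fixed letters, 0.0913%), on either strand. A match of letters is a description and does not show binding. The windows of Irs1 (chr1:82291390-82291689, minus strand) and Irs2 (chr8:11008880-11009179, minus strand), the paralogous receptor substrates, and those of Foxo1 (chr3:52268087-52268386, plus strand) and Rptor (chr11:119602655-119602954, plus strand), which passed the threshold in opposite directions with the combined exposure, are shown 5′ to 3′ with matches to the AhR core and the E-box on either strand in capitals, and no matches overlap.
Irs1: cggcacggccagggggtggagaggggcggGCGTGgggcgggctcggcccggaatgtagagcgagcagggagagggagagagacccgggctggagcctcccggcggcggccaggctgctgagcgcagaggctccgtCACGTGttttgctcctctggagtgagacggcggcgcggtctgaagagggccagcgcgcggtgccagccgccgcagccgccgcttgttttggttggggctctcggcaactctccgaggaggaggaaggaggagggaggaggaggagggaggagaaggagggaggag
Irs2: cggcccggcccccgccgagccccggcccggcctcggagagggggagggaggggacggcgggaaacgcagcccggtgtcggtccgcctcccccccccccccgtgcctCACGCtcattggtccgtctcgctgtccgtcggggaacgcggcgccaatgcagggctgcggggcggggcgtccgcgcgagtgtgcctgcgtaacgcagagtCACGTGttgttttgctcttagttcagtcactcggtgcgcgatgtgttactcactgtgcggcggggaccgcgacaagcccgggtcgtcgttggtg
Foxo1: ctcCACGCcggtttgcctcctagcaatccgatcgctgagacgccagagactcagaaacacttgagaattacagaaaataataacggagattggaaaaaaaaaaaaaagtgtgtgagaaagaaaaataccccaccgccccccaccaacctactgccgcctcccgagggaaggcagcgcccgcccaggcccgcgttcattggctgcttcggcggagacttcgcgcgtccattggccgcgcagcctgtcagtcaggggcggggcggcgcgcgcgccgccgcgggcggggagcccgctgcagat
Rptor: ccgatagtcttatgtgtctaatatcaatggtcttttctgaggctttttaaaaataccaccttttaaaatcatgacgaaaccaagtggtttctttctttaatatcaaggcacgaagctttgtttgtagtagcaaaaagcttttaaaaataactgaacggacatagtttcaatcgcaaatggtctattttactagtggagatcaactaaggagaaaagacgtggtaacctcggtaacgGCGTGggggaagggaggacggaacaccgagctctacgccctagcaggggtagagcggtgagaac

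The GCGTG core lay 14 bases before the start in Rptor, 144 before it in Irs2, 221 before it in Irs1 and 247 before it in Foxo1. None of these 4 transcripts passed the threshold with PCB 126 against HFD control (values below), where only 0.116% of all genes did. The part of the core in any change was not tested.

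With the combined exposure, 6 of the 10 genes passed an adjusted p of 0.05 against HFD control by edgeR's quasi-likelihood test, where 32.8% of all tested genes did. Insr, Foxo1, Pik3r1 and Pik3ca were higher (4 of 10, against 15.8% of all genes) and Rptor and Akt2 were lower (2 of 10, against 17% of all genes). The median log2 fold change (log2FC) of the 10 genes was 0.17, and that of all genes was -0.00096. Leaving out control replicate 2 brought the count to 3 and leaving out combined replicate 5 to 4, and without any other single mouse it was 5 or 6. The slopes on GC content of these libraries were 0.37 and -0.51. The steepest in their groups were 0.50 (control replicate 1) and -0.67 (combined replicate 4). In 3 of the 10, Insr, Pik3r1 and Rptor, the 5 combined mice did not overlap the 5 control mice as normalized, which held for 18.8% of all genes. After GC correction only Insr passed (1 of 10, against 9.14% of all genes), and the median log2FC was 0.07. The 4 genes that were higher have transcript GC contents of 41.1% (Pik3ca), 45.6% (Pik3r1), 45.8% (Insr) and 48.5% (Foxo1), and the 2 that were lower have 55.0% (Akt2) and 55.1% (Rptor). In these livers, as normalized, the summed stellate cell markers were also at 245 to 299 CPM against 123 to 231 in control (of 5, Dcn and Reln were higher, Des lower, Pdgfrb and Col1a1 not past the threshold), and lymphocyte markers at 14.4 to 18 against 7.54 to 15.3 CPM (of 4, Ptprc was higher). Hepatocyte markers were at 91810 to 119535 against 94626 to 102241 CPM (of 6, Apoa1, Ttr and Serpina1a were lower), the ranges of Kupffer cell, endothelial and cholangiocyte markers overlapped those of control, and the part of cell composition in these results was not tested. Because whole liver was sequenced, a smaller number of cells of a type and less RNA per cell cannot be told apart.

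**Figure D2:**
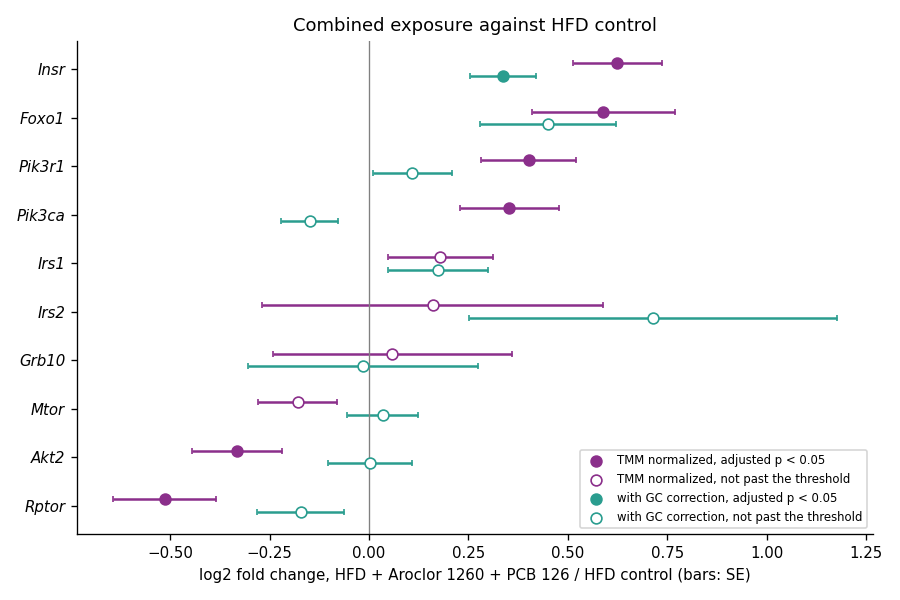
The log2 fold change of each gene, combined exposure over HFD control (5 mice each, bars are SE), as normalized and after GC correction, with filled points for an adjusted p under 0.05. The filled points are 6 as normalized and only Insr (0.34) after GC correction. The corrected values of Pik3ca (-0.15), Mtor (0.034), Akt2 (0.0024) and Grb10 (-0.015) lie on the other side of 0 from their normalized ones.

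With single exposures, no gene of the 10 passed the threshold. Aroclor 1260 against HFD control gave 0 of 10 by edgeR, as it did over all genes (0%, with 2677 genes at an unadjusted p under 0.05 and 56 called by DESeq2). As normalized, Insr was the only one of the 10 whose groups did not overlap (2.94% of all genes). PCB 126 against HFD control also gave 0 of 10, where 0.116% of all genes passed, and no gene of the 10 had separate groups (2.14% of all genes). At an unadjusted p under 0.05 there was 1 gene of the 10 with Aroclor 1260 (Insr) and 2 with PCB 126 (Insr and Irs1), beside 2677 and 2280 of all 15522 genes. DESeq2 called 0 of the 10 in both, beside 56 and 263 of all genes. GC correction left both counts at 0 of 10 (0% and 0.322% of all genes), with 0 and 3 at an unadjusted p under 0.05 (2225 and 2325 of all genes). The 3 comparisons share the same control mice.

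**Figure D3:**
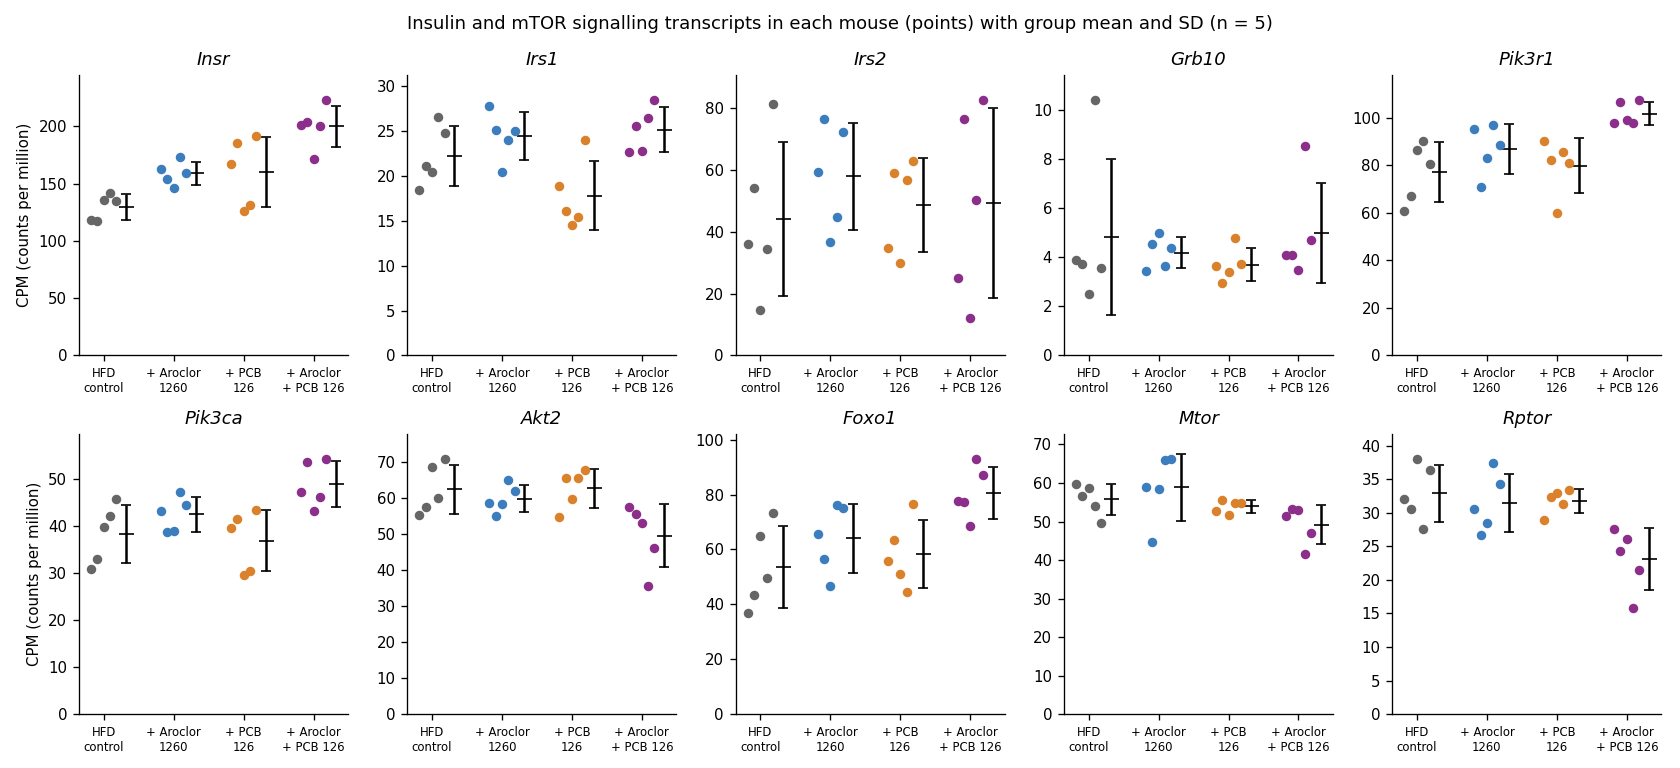
CPM (without GC correction) of the 10 genes in every mouse (points, 5 in each group) with the group mean and SD beside them, on axes that start at 0. The combined mice lie above all control mice for Insr and Pik3r1 and below them for Rptor, while Irs2 spreads widely, from 12.2 to 82.5 CPM with the combined exposure and from 29.7 to 63.0 CPM with PCB 126.

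Insr (ENSMUSG00000005534, chr8:3122061-3279617, minus strand), the receptor that starts the pathway, was as normalized on average highest in the combined mice, intermediate with either exposure and lowest in control. It was at 118, 117, 136, 142 and 135 CPM in HFD control replicates 1 to 5 and at 201, 204, 172, 200.1 and 223 CPM with the combined exposure. With Aroclor 1260 it was at 163, 154, 146, 173 and 159 CPM. With PCB 126 it was at 167, 185, 126, 131 and 191 CPM. As normalized, every Aroclor and combined mouse thus exceeded every control mouse. PCB 126 mice fell into values within the control range (2 mice) and values above it (3 mice). After GC correction every combined mouse (165 to 192 CPM) still exceeded every control mouse (130 to 152 CPM). Aroclor replicate 3 (151 CPM) then lay below control replicate 3 (152 CPM), and PCB 126 replicate 5 (196 CPM) lay above every combined mouse. Insr was higher in the combined mice than in HFD control by a log2FC of 0.62 ± 0.11 (SE, 1.54-fold, adjusted p = 0.0010, edgeR). It passed whichever mouse was left out (10 of 10 fits, 0.58 to 0.67). After GC correction the log2FC was 0.34 ± 0.08 (adjusted p = 0.016). For the single exposures the log2FC was 0.29 ± 0.11 with Aroclor 1260 (adjusted p = 0.22) and 0.31 ± 0.11 with PCB 126 (adjusted p = 0.22), which did not pass. The interaction (the departure of the combined effect from both single effects added up on the log2 scale) was 0.02 ± 0.16 (adjusted p = 0.97). Over the 20 libraries, the genes most like Insr in log2 CPM were Cops2 (r = 0.97, Spearman's rho = 0.96), Cldn12 (r = 0.96, rho = 0.97) and Ubr1 (r = 0.96, rho = 0.97), and after GC correction Fam120a (r = 0.92, rho = 0.94), Gab1 (r = 0.92, rho = 0.90) and Ubr1 (r = 0.90, rho = 0.94). These values, and those for Pik3r1, Foxo1 and Rptor below, describe libraries that share depth and base composition effects. Group means were not removed, so genes that differ between the same groups also correlate. Gab1, a docking protein of receptor tyrosine kinases, is one of the listed pathway genes.

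Irs1 (ENSMUSG00000055980, chr1:82233101-82291416, minus strand), a docking protein phosphorylated by the receptor, was lowest with PCB 126, and only its difference between the combined exposure and PCB 126 passed the threshold. It was at 18.4, 21.1, 20.4, 26.5 and 24.8 CPM in HFD control, and it was at 27.8, 25.2, 20.4, 24 and 25 CPM with Aroclor 1260. PCB 126 mice were at 18.9, 16.1, 14.5, 15.4 and 24 CPM, and combined mice at 22.7, 25.6, 22.7, 26.4 and 28.4 CPM. Of the 5 PCB 126 mice, 3 were below every other mouse of the study, while replicates 1 and 5 lay within the control range. Against HFD control the log2FC was -0.32 ± 0.13 with PCB 126 (adjusted p = 0.28), 0.14 ± 0.13 with Aroclor 1260 (adjusted p = 0.58) and 0.18 ± 0.13 with the combined exposure (adjusted p = 0.32, GC-corrected 0.17 ± 0.13). The combined mice exceeded the PCB 126 mice by 0.50 ± 0.13 (adjusted p = 0.020), which became 0.48 ± 0.13 after GC correction (adjusted p = 0.082). Of the 9144 exonic bases of Irs1, 2822 are shared with Gm9747 on the opposite strand, and since how the counting treated strand is not given in the sources used here, the level of Irs1 is uncertain to that extent.

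Irs2 (ENSMUSG00000038894, chr8:10984681-11008458, minus strand), the other main substrate in liver and one whose transcript insulin lowers, varied more between mice than between groups. It ran from 12.2 to 82.5 CPM, a ratio of 6.73 between the highest and lowest library, against 1.59 (Mtor) to 4.13 (Grb10) for the other genes. HFD control mice were at 36.2, 54.1, 14.8, 34.3 and 81.2 CPM, and Aroclor mice at 59.2, 76.5, 36.5, 44.8 and 72.2 CPM. PCB 126 mice were at 34.6, 58.9, 29.7, 56.6 and 63.0 CPM, and combined mice at 25, 76.3, 12.2, 50.4 and 82.5 CPM. Replicate 3 was the lowest in all 4 groups, and replicate 5 the highest in 3 of 4 (replicate 2 with Aroclor 1260). The groups overlapped throughout, and the log2FC against HFD control was 0.39 ± 0.43 with Aroclor 1260, 0.14 ± 0.43 with PCB 126 and 0.16 ± 0.43 for both (adjusted p = 0.64, 0.915 and 0.815), with the last at 0.71 ± 0.46 after GC correction (adjusted p = 0.37). As normalized, each SE was larger than its difference, so the data do not show that the groups were alike.

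**Figure D4:**
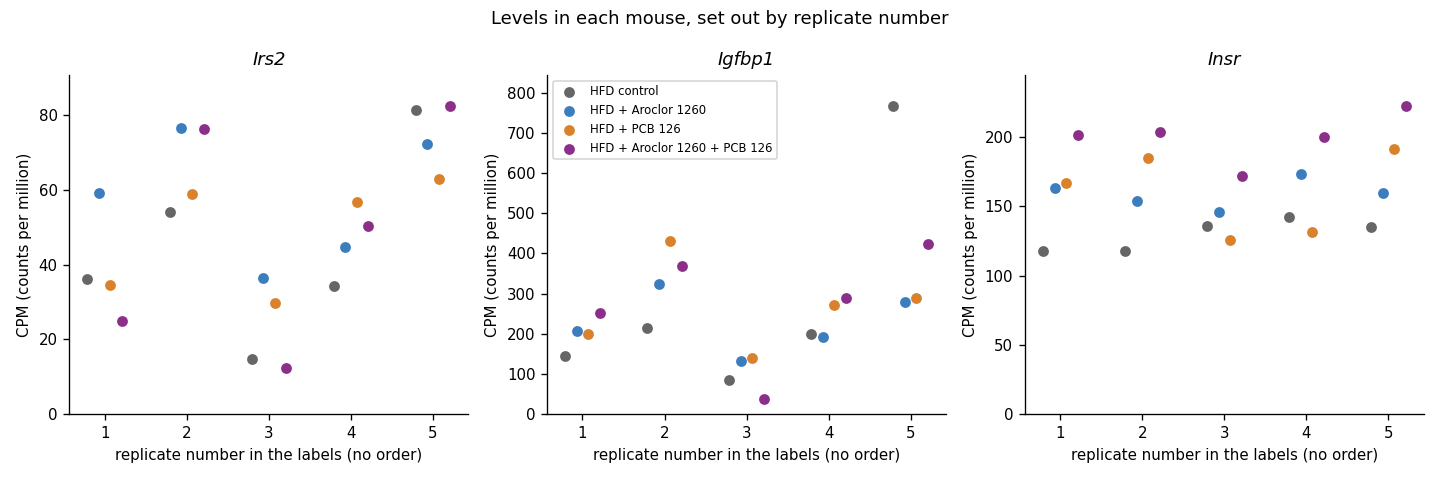
CPM of Irs2, Igfbp1 and Insr in each mouse, set out by the replicate number in the labels (which has no order) and coloured by group. For Irs2 and Igfbp1 the replicate 3 mouse is the lowest of its group in all 4 groups (12.2 to 36.5 CPM for Irs2), whereas Insr follows the exposure groups.

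Grb10 (ENSMUSG00000020176, chr11:11930508-12038683, minus strand), an imprinted adaptor that binds the receptor and restrains signalling, was the least abundant and did not differ between groups by the test. It was at 3.89, 3.74, 2.52, 10.4 and 3.57 CPM in HFD control, and it was at 4.09, 4.09, 3.50, 8.54 and 4.72 CPM with the combined exposure. The other groups ranged from 3.43 to 4.97 CPM (Aroclor 1260) and from 2.96 to 4.77 CPM (PCB 126). In 2 mice, replicate 4 of control and replicate 4 of the combined exposure, it was far above the rest, and adipocyte markers summed to 19.6 and 5.16 CPM in those livers, with muscle markers at 17.5 CPM in the first and 0 in the second. PCB 126 replicate 2 held 5.99 CPM of adipocyte markers with Grb10 at 2.96 CPM, the lowest of its group, and control replicate 5 held 3.83 CPM with Grb10 at 3.57 CPM. The part of those cells was not tested. The log2FC against HFD control was -0.19 ± 0.30, -0.38 ± 0.30 and 0.06 ± 0.30 for Aroclor 1260, PCB 126 and both (adjusted p = 0.74, 0.59 and 0.91), and leaving out control replicate 4 moved these to 0.29, 0.10 and 0.54, none of which passed.

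Pik3r1 (ENSMUSG00000041417, chr13:101680563-101768217, minus strand) encodes the p85α regulatory subunit of PI3K and Pik3ca (ENSMUSG00000027665, chr3:32397671-32468486, plus strand) the p110α catalytic subunit, and both rose with the combined exposure as normalized. Pik3r1 was at 60.8, 67.0, 86.5, 90.2 and 80.5 CPM in HFD control, and it was at 97.8, 106, 99.0, 97.9 and 107 CPM with the combined exposure. As normalized, the combined mice lay within a narrow range above all mice of the other 3 groups. These reached 97.1 CPM with Aroclor 1260 and 90.1 CPM with PCB 126. The log2FC against HFD control was 0.40 ± 0.12 (1.32-fold, adjusted p = 0.014), with an adjusted p of 0.052 when control replicate 2 was left out. The GC-corrected value was 0.11 ± 0.10 (adjusted p = 0.55), with combined mice at 81.8 to 95.1 CPM, within the control range of 70.6 to 97.0 CPM. Pik3ca was at 30.9, 33.1, 39.8, 42.0 and 45.7 CPM in HFD control, and it was at 47.3, 53.7, 43.1, 46.1 and 54.2 CPM with the combined exposure, so 1 combined mouse lay within the control range. Its log2FC was 0.35 ± 0.12 (1.28-fold, adjusted p = 0.034), it passed in 6 of 10 fits that each left out 1 mouse (not without control replicate 1 or 2 or combined replicate 2 or 5), and after GC correction it was -0.15 ± 0.07 (adjusted p = 0.21), on the other side of 0. With single exposures the log2FC was 0.17 ± 0.12 and 0.05 ± 0.12 for Pik3r1 and 0.15 ± 0.12 and -0.05 ± 0.12 for Pik3ca (Aroclor 1260 and PCB 126 in that order, adjusted p = 0.44 to 0.88). The transcripts most like Pik3r1 over the 20 libraries were Nek7 (r = 0.94, rho = 0.86), Pard3b (r = 0.93, rho = 0.91) and Yipf6 (r = 0.92, rho = 0.86), and after GC correction Akirin1 (r = 0.86, rho = 0.76), Magi3 (r = 0.82, rho = 0.73) and Usp31 (r = 0.81, rho = 0.71).

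Akt2 (ENSMUSG00000004056, chr7:27591552-27640826, plus strand), the Akt kinase most tied to insulin action in liver, fell with the combined exposure as normalized, and Foxo1 (ENSMUSG00000044167, chr3:52268336-52353221, plus strand), the transcription factor it restrains, rose. Akt2 was at 55.4, 57.5, 68.6, 60.1 and 70.9 CPM in HFD control, and it was at 57.5, 55.6, 53.1, 35.7 and 46.2 CPM with the combined exposure. The low end came from combined replicates 4 and 5, while replicates 1 and 2 lay within the control range. The log2FC was -0.33 ± 0.11 (0.794-fold, adjusted p = 0.028), it passed in 6 of 10 fits that each left out 1 mouse (not without control replicate 3 or 5 or combined replicate 4 or 5), fell to -0.23 without combined replicate 4, and after GC correction it was 0.0024 ± 0.10 (adjusted p = 0.996). Foxo1 was at 36.9, 43.5, 65.0, 49.7 and 73.1 CPM in HFD control, and it was at 77.5, 77.1, 68.5, 92.9 and 86.9 CPM with the combined exposure. A single combined mouse (replicate 3) lay below the highest control mouse. The log2FC of Foxo1 was 0.59 ± 0.18 (1.5-fold, adjusted p = 0.016), with an adjusted p of 0.054 when control replicate 2 was left out, while the GC-corrected value was 0.45 ± 0.17 (adjusted p = 0.10). With single exposures Akt2 was at 55.1 to 65.1 CPM (Aroclor 1260) and 54.7 to 67.8 CPM (PCB 126), with a log2FC of -0.06 ± 0.11 and 0.01 ± 0.11. Foxo1 was at 46.5 to 76.1 and 44.5 to 76.6 CPM, with a log2FC of 0.26 ± 0.18 and 0.12 ± 0.18 (adjusted p = 0.45 to 0.99 for both genes). Foxo1 was most like Cep85l (r = 0.95, rho = 0.95), Cpeb2 (r = 0.93, rho = 0.95) and Wasl (r = 0.92, rho = 0.93), and after GC correction like Cep85l (r = 0.92, rho = 0.91), Il6ra (r = 0.90, rho = 0.87) and Cpeb2 (r = 0.90, rho = 0.89).

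Rptor (ENSMUSG00000025583, chr11:119602905-119899576, plus strand), the scaffold that brings substrates to mTORC1, fell with the combined exposure, while Mtor (ENSMUSG00000028991, chr4:148448611-148557683, plus strand), the kinase itself, did not pass the threshold. Rptor was at 32.1, 30.5, 38.0, 27.6 and 36.3 CPM in HFD control, and it was at 27.5, 24.3, 26.1, 15.8 and 21.5 CPM with the combined exposure. The highest combined mouse lay just under the lowest control mouse, and the PCB 126 mice (28.9 to 33.5 CPM) were also all above the combined mice. The log2FC against HFD control was -0.51 ± 0.13 (0.70-fold, adjusted p = 0.0057), it passed in 10 of 10 fits that each left out 1 mouse, with a GC-corrected value of -0.17 ± 0.11 (adjusted p = 0.355). Mtor was at 49.7 to 59.7 CPM in HFD control, 44.8 to 66.2 with Aroclor 1260, 51.7 to 55.5 with PCB 126 and 41.5 to 53.2 with the combined exposure. Its log2FC with the combined exposure was -0.18 ± 0.10 (adjusted p = 0.17), against a GC-corrected 0.03 ± 0.09 (adjusted p = 0.87). Single exposures gave -0.06 ± 0.13 and -0.05 ± 0.13 for Rptor and 0.08 ± 0.10 and -0.05 ± 0.10 for Mtor (Aroclor 1260 and PCB 126, adjusted p = 0.68 to 0.89). Rptor was most like Col18a1 (r = 0.98, rho = 0.94), Lrp1 (r = 0.98, rho = 0.95) and Ppp6r1 (r = 0.98, rho = 0.95), and after GC correction like Fam234a (r = 0.93, rho = 0.90), Lrp1 (r = 0.92, rho = 0.87) and Trpc4ap (r = 0.91, rho = 0.87).

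The combined exposure was also set against each single one. Against PCB 126 alone, 5 of the 10 genes passed (16.7% of all genes): Irs1, Pik3ca and Pik3r1 were higher (3 of 10, 5.64% of all genes) and Rptor and Akt2 lower (2 of 10, 11% of all genes). Pik3ca differed by a log2FC of 0.41 ± 0.12 (adjusted p = 0.034) and Pik3r1 by 0.35 ± 0.12 (adjusted p = 0.0497), and the GC-corrected values were 0.04 ± 0.07 and 0.12 ± 0.10. Rptor differed by -0.46 ± 0.13 (adjusted p = 0.025) and Akt2 by -0.34 ± 0.11 (adjusted p = 0.045), and the GC-corrected values were -0.19 ± 0.11 and -0.06 ± 0.10. Irs1 kept most of its size (above). Insr missed the threshold as normalized (0.32 ± 0.11, adjusted p = 0.054) and passed by DESeq2 (adjusted p = 0.025). These calls leaned on single libraries, since 0 of the 10 passed without combined replicate 4 or 5 or PCB 126 replicate 3 or 4, and 3 to 5 without any other. The slopes on GC content were -0.67 and -0.51 in those combined libraries and 0.405 and 0.27 in those PCB 126 libraries, the furthest from 0 in their groups. The part of base composition in this was not tested. After GC correction 0 of 10 passed, as did 0% of all genes (1 of 10 and 3104 of all at an unadjusted p under 0.05). Against Aroclor 1260 alone none of the 10 passed by edgeR, where 0.412% of all genes did and 0.0322% after GC correction. At an unadjusted p under 0.05 were 4 of the 10, beside 3639 of all 15522 genes, and DESeq2 called 2 of the 10, beside 1011 of all. Rptor was at -0.45 ± 0.13 (adjusted p = 0.075, GC-corrected -0.21 ± 0.11) and Insr at 0.33 ± 0.11 (adjusted p = 0.10, GC-corrected 0.17 ± 0.08). The interaction term passed for 0 of 10 and for 0% of all genes by edgeR (DESeq2 called 0 and 1). At an unadjusted p under 0.05 were 1846 of all genes and 1 of the 10, Rptor, at -0.40 ± 0.18.

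The rest of the pathway was read from a list of 104 other genes, of which 101 were tested (Rps6kb1, Rps6kb2 and Rps6 were not analysed here). Under the combined exposure 24 rose, 27 fell and 50 did not pass, beside 15.8% higher and 17% lower among all genes. After GC correction 9 rose and 6 fell, beside 9.14% of all genes passing. No gene of the list passed with Aroclor 1260 or with PCB 126 by edgeR. At an unadjusted p under 0.05 were 18 and 14 of the 101, beside 2677 and 2280 of all 15522 genes. DESeq2 called 1 and 4 of the list, beside 56 and 263 of all genes. Akt1s1, Stk11, Tsc2 and Srebf1, named below, share exonic bases with a gene on the opposite strand, so their counts are uncertain in the way of Irs1. After GC correction, Gab1 alone passed with PCB 126 (0.50 ± 0.10, adjusted p = 0.037). Over the 111 genes of the list and the 10 genes together, log2FC with the combined exposure and transcript GC content had a Pearson r of -0.80 as normalized and -0.19 after correction, and over 11341 genes that averaged 1 CPM or more -0.75 and -0.0089. These are correlations across genes of the same libraries, and genes are not independent replicates.

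**Figure D5:**
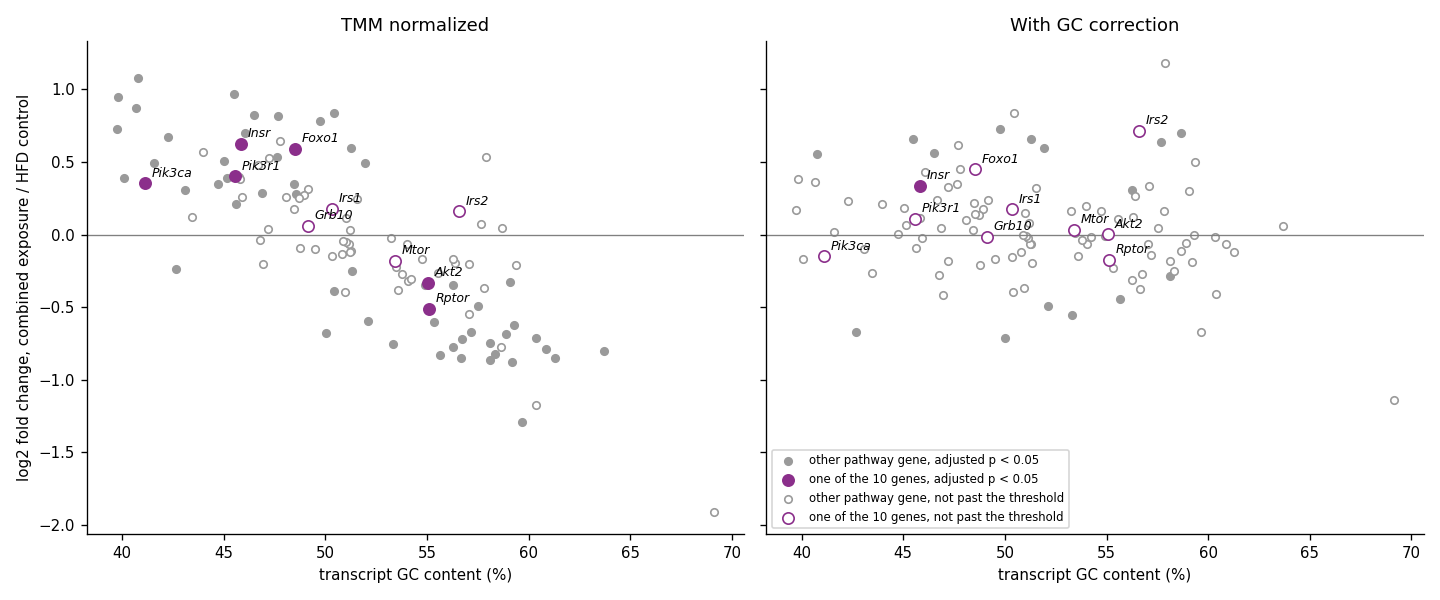
The log2 fold change, combined exposure over HFD control, against the GC content of the transcript (%), for the 10 genes (large, named) and 101 other pathway genes (small), as normalized and after GC correction, with filled points past an adjusted p of 0.05. As normalized the points run from higher changes at low GC content to lower ones at high GC content (r = -0.80), and after correction this run is weaker (r = -0.19).

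Next to the receptor, 4 of 18 genes rose and 4 fell with the combined exposure, beside 15.8% and 17% of all genes. Gab1 rose from 13 ± 0.966 to 18.3 ± 2.11 CPM (SD, n = 5 in each group, log2FC 0.49 ± 0.11, adjusted p = 0.0023). Grb7, a relative of Grb10, fell by 0.72 on the log2 scale (adjusted p = 0.0052) and Sh2b1, an adaptor that promotes receptor signalling, by 0.69 (adjusted p = 0.00084). Grb14, the liver relative of Grb10 that inhibits the receptor, was at 87.6 ± 7.92 CPM in control and 74.3 ± 5.64 CPM with the combined exposure (log2FC -0.24 ± 0.09, adjusted p = 0.047). After GC correction the fall in Grb14 was larger (-0.67 ± 0.11, adjusted p = 0.0036), Gab1 stayed past the threshold (0.60 ± 0.10, adjusted p = 0.0037), and Grb7 and Sh2b1 did not pass (adjusted p = 0.14 and 0.60). Igf1r, the related growth factor receptor, was at 2.93 ± 1.73 and 3.61 ± 1.47 CPM (adjusted p = 0.45).

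Among PI3K subunits and lipid phosphatases, 4 of 11 rose and 2 fell, beside 15.8% and 17% of all genes. Pik3cb, the other widely expressed catalytic subunit, went from 15.8 ± 0.862 to 27.9 ± 3.64 CPM (log2FC 0.82 ± 0.14, adjusted p = 0.0010) and passed after GC correction as well (0.56 ± 0.12, adjusted p = 0.0074). Pik3c2a, a class II PI3K, rose by 0.72 ± 0.23 (adjusted p = 0.019), and Pik3r2, the p85β subunit, fell by 0.79 (adjusted p = 0.0041). Neither passed after GC correction (adjusted p = 0.57 and 0.82). Of Akt and its substrates, 3 of 12 rose and 3 fell, beside the same shares of all genes. Pde3b, the phosphodiesterase that insulin activates, rose from 62.6 ± 13.1 to 132 ± 20.6 CPM (log2FC 1.08 ± 0.20, adjusted p = 0.0011), and 0.56 ± 0.14 remained after GC correction (adjusted p = 0.019). Tbc1d4, an Akt substrate in glucose transport, rose by 0.59 ± 0.16 (adjusted p = 0.0085) and by 0.66 ± 0.17 after GC correction (adjusted p = 0.020). Trib3, an Akt-binding pseudokinase, fell by 0.88 (adjusted p = 0.027) and Akt1 fell by 0.62 (adjusted p = 0.0068), and neither passed after GC correction (adjusted p = 0.69 and 0.995).

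Within the mTOR complexes, 2 of 9 listed subunits rose and 3 fell, beside 15.8% and 17% of all genes. Deptor, a subunit that inhibits mTOR, rose from 153 ± 47.0 to 248 ± 25.8 CPM (log2FC 0.70 ± 0.19, adjusted p = 0.0090), and Rictor, the scaffold of mTORC2, rose by 0.49 ± 0.15 (adjusted p = 0.018). Akt1s1, the inhibitory subunit PRAS40, fell by 0.80 (adjusted p = 0.0013), Telo2, which helps to assemble the complexes, by 0.77 (adjusted p = 0.0041) and Prr5, an mTORC2 subunit, by 0.72 (adjusted p = 0.030). After GC correction 0 of the 9 passed by edgeR (2 at an unadjusted p under 0.05, beside 3849 of all 15522 genes). Of the inputs to mTORC1, 8 of 33 rose and 10 fell, beside the same shares of all genes. After GC correction 3 rose and 4 fell, beside 9.14% of all genes passing. Fnip1, a folliculin partner, rose by 0.95 ± 0.19 (adjusted p = 0.0015) and Prkaa2, a catalytic subunit of AMPK, by 0.87 ± 0.20 (adjusted p = 0.0029). Stk11, the kinase LKB1 that activates AMPK, fell by 0.87 (adjusted p = 0.0011), Lamtor4, part of the lysosomal anchor of mTORC1, by 0.85 (adjusted p = 0.0026), and Tsc2, a brake on mTORC1, by 0.34 (adjusted p = 0.035). Only Stk11 of these 5 passed after GC correction (-0.28 ± 0.08, adjusted p = 0.038). Downstream, 1 of 10 rose and 4 fell as normalized, beside 15.8% and 17% of all genes. Eif4ebp1, the translation repressor that mTORC1 phosphorylates, fell from 33.2 ± 3.05 to 20.8 ± 4.00 CPM (log2FC -0.68 ± 0.16, adjusted p = 0.0036) and by as much after GC correction (-0.71 ± 0.17, adjusted p = 0.014). The autophagy kinase Ulk1 fell by 0.75 (adjusted p = 0.0013), Tfeb, a lysosomal regulator, by 0.85 (adjusted p = 0.013) and Maf1, a repressor of RNA polymerase III, by 0.35 (adjusted p = 0.013), and none of the 3 passed after GC correction (adjusted p = 0.43, 0.70 and 0.38).

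Of 8 liver transcripts that insulin regulates, 2 rose and 1 fell with the combined exposure, beside 32.8% of all genes passing. Ppargc1a, a coactivator of glucose production, was at 5.31 ± 0.555 CPM in HFD control, 8.46 ± 0.914 with Aroclor 1260, 8.21 ± 1.84 with PCB 126 and 10.4 ± 0.969 with the combined exposure. Its log2FC with the combined exposure was 0.97 ± 0.14 (adjusted p = 0.00050), against a GC-corrected 0.66 ± 0.13 (adjusted p = 0.0058). G6pc, the last enzyme of glucose release, went from 703 ± 333 to 1241 ± 512 CPM (0.82 ± 0.31, adjusted p = 0.0497), and Fasn, fatty acid synthase, from 62.9 ± 18.9 to 35.6 ± 11 CPM (-0.82 ± 0.22, adjusted p = 0.0076). G6pc and Fasn did not pass after GC correction (adjusted p = 0.22 and 0.54). Igfbp1, Pck1, Pdk4 and Srebf1 did not pass (adjusted p = 0.21 to 0.96).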

How the data were processed

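Liver RNA of 20 mice (polyA selected, stranded library kit, 2 sequencing runs) was measured once per mouse. Per the methods, the authors checked reads with FastQC 0.10.1, aligned them with STAR 2.6 to GRCm38.p6 and made raw read counts per gene with HTSeq 0.10.0, and these counts were deposited without normalization. The annotation release and strand setting of the counting are not given in the sources used here. Gene symbols, exon lengths and GC content came from GENCODE M21, which matched 21754 of 21780 identifiers, and promoter windows from RefSeq (GRCm38.p6). Genes with at least 10 counts in all were kept (15522) and scaled with TMM factors in edgeR 4.0.16 (R 4.3.3). One quasi-likelihood model over the 4 groups (16 residual degrees of freedom) gave each comparison, and p-values were adjusted by Benjamini-Hochberg over all tested genes (threshold 0.05). The SE is that of the log2 fold change, and the SD that of 5 mice. CPM values use the scaled totals. The GC correction fitted, in each library, a spline with 6 degrees of freedom over transcript GC content. DESeq2 1.42.0, which the study's methods name, was an alternative, beside other scalings, filters, sample sets, a replicate block and leaving out each mouse. The procedure was tested on simulated data. Nothing says whether mice shared a litter or cage, so p-values measure the spread between these mice. Chi-square tests over genes, for the 40 pairs within groups, found no pair that differed by sampling noise alone. In PCB 126 replicate 2 the label carries a second, different number, and the title was followed. The 10 genes and all gene lists were chosen with earlier results of these data known. Named pathway genes were up to 4 per list, chosen among called genes averaging 1 CPM or more by the size of their log2FC, plus Grb14, Igf1r, Akt1, Rictor, Tsc2 and the 8 insulin-regulated transcripts. The counts per list cover every tested gene, and a few genes that this rule names are not reported here. The most similar genes (3 by Pearson's r) were named for Insr, Pik3r1, Foxo1 and Rptor.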

Additional observations from a re-analysis of the deposited data

Results flagged for a closer look

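In 2 of 40 groups (10 genes in 4 groups of 5 mice) 1 mouse stood apart by Dixon's test, and chance alone flags about 1 in 20 groups. Both were for Grb10. HFD control replicate 4 was at 10.4 CPM, with its nearest neighbour at 3.89 CPM, and combined exposure replicate 4 was at 8.54 CPM, with its nearest neighbour at 4.72 CPM.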

How the results depend on the processing

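Between the combined exposure and HFD control, 5089 genes, 6 of the 10 and 51 pathway genes passed, which GC correction took to 1419, 1 and 15, and GC correction with a replicate block to 1466, 1 and 16. Between the combined exposure and PCB 126, 2589 genes and 5 of the 10 passed, which became 0 and 0 with GC correction and 203 and 1 with GC correction and the block, and 2 of the 10 passed with only the groups compared in the fit. Which of the 10 passed also moved: Insr passed by DESeq2 and Insr and Foxo1 with a minimum of 1 CPM (adjusted p = 0.025, 0.026 and 0.044), and Pik3r1 did not with RLE size factors or without a filter (adjusted p = 0.056 and 0.058). Between the combined exposure and Aroclor 1260, 64 genes passed, which became 1011 with DESeq2, 5 with GC correction, 107 with RLE size factors, 465 with a minimum of 1 CPM, 13 without a filter and 0 with only the groups compared, while 2 (DESeq2) and 1 (1 CPM) of the 10 passed in place of 0. Aroclor 1260 against control went from 0 genes to 56 (DESeq2) and 21 (GC correction with the block), with 1 pathway gene in place of 0 by DESeq2. PCB 126 against control went from 18 genes to 263 (DESeq2), 50 (GC correction), 116 (GC correction with the block), 64 (1 CPM) and 4 (only the groups compared), and its pathway genes from 0 to 4, 1, 2 and 2 in the first 4 of these. The interaction went from 0 genes to 1 (DESeq2) and 38 (GC correction with the block). The cause of these moves was not tested.

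Replicate numbers mark different animals, and the deviations of same-numbered mice correlated at -0.26 to 0.74, not over 0.1 for every pair, so the numbers were not taken to pair the mice. With the replicate block, 475 genes passed between the combined exposure and Aroclor 1260, 26 with Aroclor 1260 (1 pathway gene), 101 with PCB 126 (3 pathway genes) and 38 for the interaction. Between the combined exposure and PCB 126, Insr and Foxo1 passed with the block (adjusted p = 0.045 and 0.044) and Akt2 did not (adjusted p = 0.053), and Irs2 turned from 0.02 to -0.19. Of 20 libraries, 10 correlated best with their own number, a hint from the data and not the design.

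GC correction turned these log2FC (the value with the block follows): with the combined exposure against control Akt2 0.0024 (0.0069), Mtor 0.034 (0.035) and Pik3ca -0.15 (-0.15), and Grb10 to -0.015 without the block. Against PCB 126 Mtor turned to 0.040 (0.041), and against Aroclor 1260 Pik3ca to -0.059 (-0.062) and Irs2, without the block, to 0.16. With Aroclor 1260 Akt2 turned to 0.032 (0.035), Pik3ca to -0.091 (-0.087) and Rptor to 0.035 (0.038), with PCB 126 Pik3r1 to -0.010 (-0.0074) and Rptor to 0.015 (0.018), and the interaction of Insr to -0.066 (-0.062). Akt2 with PCB 126 turned to -0.0022 (DESeq2), -0.0026 (RLE) and -0.019 (1 CPM), and Irs2 between the combined exposure and PCB 126 to -0.026 with only the groups compared.

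Leaving out 1 mouse at a time gave 3887 to 5665 genes, 3 to 6 of the 10 and 34 to 54 pathway genes for the combined exposure against control, 245 to 3403 genes and 0 to 5 of the 10 against PCB 126, and 0 to 1011 genes and 0 to 1 of the 10 against Aroclor 1260. PCB 126 gave 4 to 131 genes and 0 to 3 pathway genes, and Aroclor 1260 and the interaction 0 genes throughout. Against control, Insr and Rptor passed in 10 of 10 such fits, Foxo1 and Pik3r1 in 9 and Akt2 and Pik3ca in 6, and against PCB 126 Irs1 and Rptor in 6, Pik3ca in 5, Akt2 in 4 and Pik3r1 in 1. Log2FC ranges that crossed 0 were, with the combined exposure against control, Grb10 -0.22 to 0.54 and Irs2 -0.11 to 0.50. Against Aroclor 1260 they were Grb10 -0.031 to 0.36, Irs1 -0.018 to 0.090 and Irs2 -0.50 to 0.018, and against PCB 126 Irs2 -0.24 to 0.27. With Aroclor 1260 Grb10 ran from -0.37 to 0.29. With PCB 126 they were Akt2 -0.035 to 0.057, Grb10 -0.53 to 0.10, Irs2 -0.067 to 0.48, Pik3ca -0.12 to 0.020, Pik3r1 -0.022 to 0.13 and Rptor -0.11 to 0.023. The interaction of Insr ran from -0.039 to 0.097. Each of the 10 genes had at least 66 counts in every library, and 5 mice in a group limit the precision.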

Other observations

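Irs2 followed the replicate number of the mice more than their exposure, a pattern noticed after the values were seen. Of the variance of its log2 CPM over the 20 libraries, 72.9% lay between the 5 replicate numbers and 8.08% between the 4 groups, whereas the medians over 11342 genes with a mean of at least 1 CPM were 16.7% and 36.3%. The share between numbers placed Irs2 at percentile 99.99 of those genes. For the other 9 genes it ran from 4.17% (Mtor) to 43.7% (Grb10), and Insr had 66.7% of its variance between groups.

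The same mouse number was lowest in every group for 1.19% of those genes, and it was number 3 for 0.547%. Besides Irs2, this held for 2 of the 8 insulin-regulated transcripts, Igfbp1, a fasting-induced binding protein of insulin-like growth factors, and G6pc. In the replicate 3 mice Igfbp1 was at 86.4 CPM (HFD control), 133 CPM (Aroclor 1260), 139 CPM (PCB 126) and 36.7 CPM (combined exposure), and G6pc was at 352, 582, 944 and 541 CPM in the same order. The labels do not say what the replicate number stands for, and a shared cage, day or time of harvest was not tested.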
